A study of Mus musculus with 6 samples.

Results

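The 5 bone morphogenetic protein (BMP) ligand genes and 5 genes of their secreted antagonists described here were followed through neomycin damage of the mouse cochlea. The ligands were Bmp2, Bmp4, Bmp5, Bmp6 and Bmp7, and the antagonists were Nog, Grem1, Chrd, Chrdl1 and Fst. These 10 genes were picked by symbol from the 24421 gene symbols of the count table, and each symbol was found. The samples were cochlear explants from wild-type (WT) mice at postnatal day 2 (P2), grown for 12 h before the damage step, and the strain is not given in the labels. In the neomycin group, 1 mM neomycin, an aminoglycoside antibiotic that kills hair cells (HCs), was applied for 6 h. The explants were then kept for 5 days with 10 μM EdU, a thymidine analogue taken up by dividing cells, before bulk RNA-seq, with 3 samples labelled control and 3 labelled neomycin. Each sample was a pool of 6 to 8 cochleae, freed of the stria vascularis anlage, the modiolus and the tectorial membrane, so HCs, supporting cells (SCs) and the tissue around them were read together. The growth text repeats the neomycin step for every sample, and the groups used here follow the treatment label. The design text of the series speaks of a mesenchymal cell line and its knockdowns, which neither the sample labels nor the methods mention, and the samples are taken here as the labels give them.

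BMPs are dimeric ligands of the TGF-β family. They bring type I and type II receptor kinases together on the cell surface, the type I receptor phosphorylates the BMP-class SMAD proteins, and these enter the nucleus with SMAD4 and switch on targets such as the Id genes. Noggin, gremlin, chordin, chordin-like and follistatin proteins bind the ligands outside the cell and keep them from their receptors. In the developing cochlea, Bmp4 is known as a ligand of the outer, lateral side of the epithelium, and BMP signaling takes part in setting up the sensory region.

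Libraries held 50471116 to 66068108 counted reads. HC markers were present in every library and lower after neomycin, with 14 of 15 markers lower and a summed level of 866 to 1010 counts-per-million (CPM) in control samples and 305 to 359 in neomycin samples. Ocm, which encodes the calcium buffer oncomodulin of outer HCs, went from 303 to 28.6 CPM (edgeR quasi-likelihood test, adjusted p = 5.13e-08), and the unconventional myosin gene Myo6 from 211 to 164 (adjusted p = 0.00865). Of 14 SC markers, 2 were higher (S100a1, log2 fold change 0.46, adjusted p = 0.00887, among them) and 5 lower, while Gjb2 was at 0.21 (adjusted p = 0.0776). Of those also past 1.5-fold, 0 were higher (2.24% of all genes) and 3 lower (6.60%). The summed level was 2913 to 3327 CPM in control and 3649 to 3764 after neomycin. This sum mostly followed S100a1, whose mean alone went from 1561 to 2144 CPM. Of 6 markers of the greater epithelial ridge, the tall epithelium beside the sensory region, 3 were higher and 0 lower, with Tectb at 0.61 (adjusted p = 0.0138), Epyc at 0.21 (adjusted p = 0.132) and summed levels of 10174 to 11938 and 13158 to 16591 CPM. Mesenchyme markers split into 2 higher and 3 lower of 11, with Lum at 0.10 (adjusted p = 0.433), Col3a1 at -0.47 (adjusted p = 0.00364) and sums of 6355 to 6977 and 6658 to 6889 CPM. Cartilage markers gave 2 higher and 0 lower of 5 tested, with Col9a1 at 0.36 (adjusted p = 0.0166), Col2a1 at 0.06 (adjusted p = 0.731) and sums of 6278 to 7613 and 7252 to 7554 CPM. Endothelial markers gave 0 higher and 6 lower of 10 with sums of 320 to 360 and 307 to 360 CPM. The sums were mostly Emcn (0.12, adjusted p = 0.329), which like Egfl7 (0.00, adjusted p = 0.98) did not pass, while Pecam1 (-2.71), Cldn5 (-3.40), Tie1 (-2.83), Cdh5 (-2.05), Flt1 (-1.84) and Kdr (-0.96), named after their values were seen, fell far. Pericyte markers gave 0 higher and 3 lower of 5 (Pdgfrb -0.37, adjusted p = 0.00342, and Rgs5 -0.05, adjusted p = 0.865) with sums of 128 to 154 and 100 to 107 CPM. Macrophage markers gave 4 higher and 0 lower of 9 (C1qc 0.63, adjusted p = 0.0057, and C1qa 0.59, adjusted p = 0.00843), with sums of 84.7 to 112 and 118 to 148 CPM. Neuron markers gave 2 higher and 4 lower of 8 with sums of 274 to 353 and 269 to 327 CPM. Isl1 (0.27, adjusted p = 0.0302) and Syt1 (0.37, adjusted p = 0.0346) were the higher ones, and Nefl (-1.15), Nefm (-0.89), Nefh (-1.21) and Snap25 (-1.01), named after their values were seen, were lower. Glial markers gave 1 higher and 2 lower of 8 (Sox10 -0.03, adjusted p = 0.797, and S100b 0.88, adjusted p = 2.02e-05), with sums of 612 to 681 and 638 to 653 CPM. Among all genes tested, 12.9% were higher and 16.1% lower at an adjusted p under 0.05, the threshold of these marker counts. No marker was at 0 in all samples. The part of these cell type markers in the results on BMP genes was not tested, and in pooled tissue fewer cells of a type and less RNA per cell cannot be told apart.

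The question asked of the 10 genes was which ligands and which antagonists differed 5 days after HC damage. Among the ligands, Bmp2 and Bmp7 fell while Bmp4, Bmp5 and Bmp6 did not pass the test. Among the antagonists, Chrd, Chrdl1 and Fst rose, Grem1 fell, and Nog did not pass. A gene was taken to pass the test at an adjusted p under 0.05, and was called differentially expressed where its fold change was also over 1.5. In all, 6 of the 10 genes passed, against 29.0% of the 15988 genes tested. The 6 split evenly, 3 lower against 16.1% of all genes and 3 higher against 12.9%. Only Grem1 was also past 1.5-fold, so 1 of 10 was called, against 8.84% of all genes (1 lower against 6.60% and 0 higher against 2.24%). Grem1 had few reads and entered the test through its control samples alone, and with a filter at a mean of 1 CPM it was not tested and 0 of the other 9 genes were called. Control and neomycin values did not overlap for 6 of the 10, against 43.5% of all genes, with 3 lower (22.5% of all genes) and 3 higher (21.0%). The median log2 fold change was -0.09 over the 5 ligands and 0.28 over the 5 antagonists, and -0.00 over all genes tested.

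**Figure D1:**
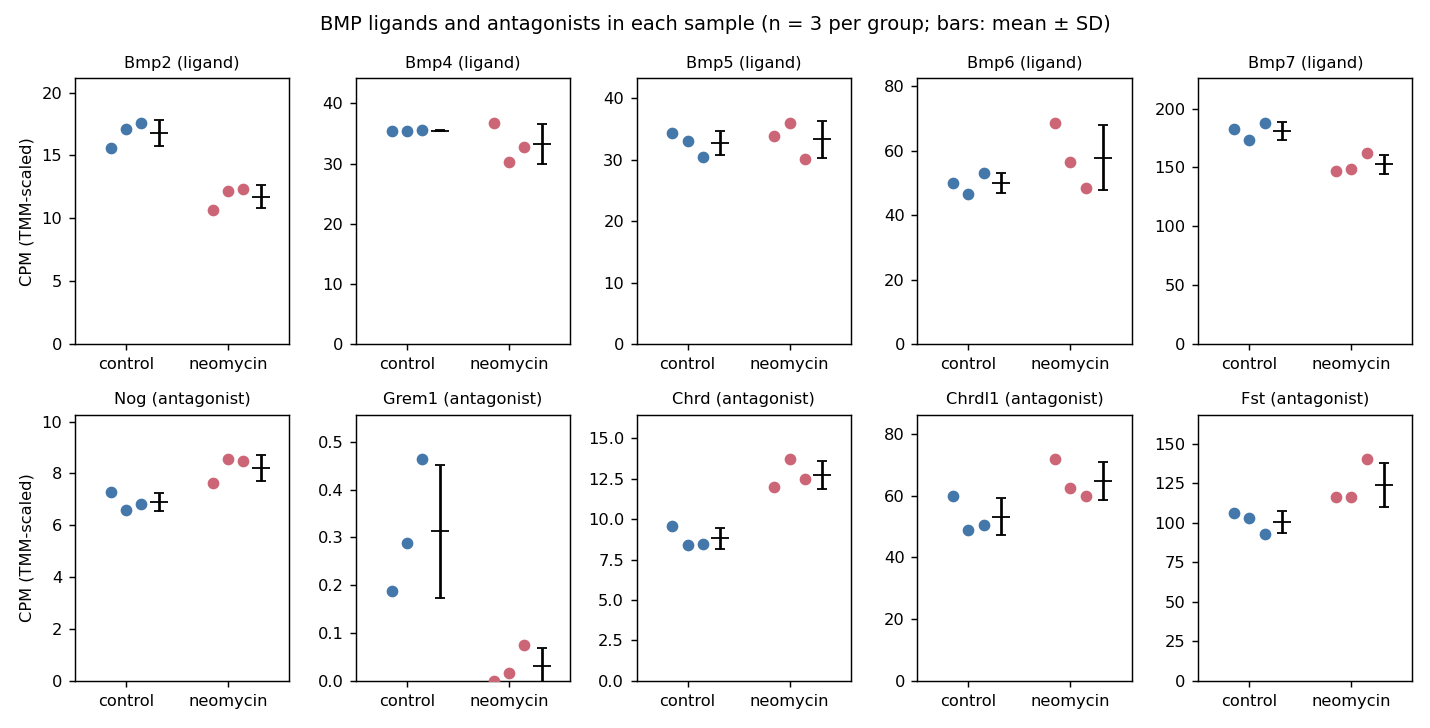
Level of each BMP ligand and antagonist in CPM (linear axis from 0, own scale for each gene) in the 3 control and 3 neomycin samples, with points for samples and bars for the group mean ± SD (the Grem1 neomycin bar is cut at 0). Bmp2, Bmp7 and Grem1 sit lower after neomycin and Nog, Chrd and Fst higher without overlap, whereas the samples of Bmp4, Bmp5, Bmp6 and Chrdl1 overlap.

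Bmp2, a ligand known for bone and cartilage formation and for heart development, was read at 15.6, 17.1 and 17.6 CPM in control samples 1 to 3 and at 10.7, 12.2 and 12.3 CPM in neomycin samples 1 to 3. Every neomycin sample was below every control sample. The mean went from 16.8 ± 1.07 to 11.7 ± 0.894 CPM (SD, n = 3 each), a 1.43-fold decrease, with a log2 fold change of -0.52 ± 0.10 (SE; 95% interval -0.74 to -0.29; adjusted p = 0.00366 by edgeR's quasi-likelihood test). Bmp2 passed the test under each of 16 other settings, with log2 fold changes from -0.58 to -0.45, and was the ligand with the largest decrease of the 5.

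Bmp4 is the closest relative of Bmp2 in sequence. Its level was 35.4, 35.5 and 35.6 CPM in the control samples and 36.8, 30.2 and 32.8 CPM in the neomycin samples. The control samples were nearly level, and the neomycin samples fell on both sides of them. The log2 fold change was -0.09 ± 0.09 (95% interval -0.28 to 0.09, adjusted p = 0.436), an interval that leaves out a decrease as large as the Bmp2 estimate. With gene length correction and the replicate block together it was -0.24 (adjusted p = 0.0344), the 1 setting of 16 under which Bmp4 passed.

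Bmp5, a ligand of the same subgroup as Bmp6 and Bmp7 that is known for shaping the outer ear and skeleton, was read at 34.3, 33.1 and 30.5 CPM in control and at 33.8, 36 and 30.1 CPM after neomycin. The neomycin samples spanned the whole control range. The log2 fold change was 0.03 ± 0.09 (95% interval -0.16 to 0.22, adjusted p = 0.837), and its sign turned under 3 settings without passing the test. An antisense gene, Gm26903, covers 1878 of the 4025 exon bases of Bmp5, and as the strand setting of the counting is not given in the sources used here, the 2 cannot be told apart in these counts.

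Bmp6, best known for setting the iron hormone hepcidin in the liver, was read at 50.1, 46.7 and 53.0 CPM in control and 68.7, 56.6 and 48.4 CPM after neomycin. Neomycin samples 1 and 2 were above all controls, and sample 3 lay among them. The log2 fold change was 0.21 ± 0.11 (95% interval -0.02 to 0.45, adjusted p = 0.16). Without neomycin sample 3 it was 0.33 (adjusted p = 0.0375), and without neomycin sample 1 it was 0.07 (adjusted p = 0.6). The size of the Bmp6 difference thus depended on which neomycin samples were kept.

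Bmp7, a ligand needed for kidney and eye development, had the most reads of the 10 genes, with levels of 183, 173 and 188 CPM in control samples and 147, 149 and 162 CPM in neomycin samples. All neomycin samples were lower than all controls. The mean went from 181 ± 7.79 to 153 ± 8.35 CPM, a 1.19-fold decrease with a log2 fold change of -0.25 ± 0.07 (95% interval -0.41 to -0.09, adjusted p = 0.0243). The decrease no longer passed without control sample 1 (adjusted p = 0.0615), control sample 3 (0.0524), neomycin sample 1 (0.0747) or neomycin sample 2 (0.113).

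Chrd encodes chordin, which holds BMP dimers away from their receptors until tolloid-class proteases cut it. It was read at 9.59, 8.40 and 8.47 CPM in control and at 12.0, 13.7 and 12.5 CPM after neomycin. The lowest neomycin sample was above the highest control. The mean rose 1.44-fold, from 8.82 ± 0.671 to 12.7 ± 0.885 CPM (log2 fold change 0.52 ± 0.11, 95% interval 0.28 to 0.77, adjusted p = 0.00545). Like Bmp2, Chrd passed the test under each of 16 other settings, with log2 fold changes from 0.45 to 0.63, and it was past 1.5-fold with gene length correction (0.63), with that correction and the replicate block (0.63) and without control sample 1 (0.60). Chrd shares 239 exon bases with Thpo on the other strand, which had 49 to 81 counts a sample against 438 to 807 for Chrd, and Thpo did not pass the test (log2 fold change 0.32, adjusted p = 0.486).

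Grem1 encodes gremlin, an antagonist of BMP2, BMP4 and BMP7 best known from limb bud and kidney. It was near the limit of detection, with 13, 15 and 26 reads in the control samples and 0, 1 and 4 in the neomycin samples. No neomycin sample reached the lowest control. This is 0.188, 0.288 and 0.463 CPM against 0, 0.0169 and 0.0745 CPM, or a mean of 0.313 ± 0.139 and 0.0305 ± 0.039. Over the pooled samples, 54 reads in control and 5 after neomycin gave a ratio of 0.099 (exact 95% interval 0.0309 to 0.246, counting error only). The fitted log2 fold change was -3.27 ± 0.85 (95% interval -5.11 to -1.43, adjusted p = 0.0133), a value that depends on how low counts are moderated. The low-count filter kept Grem1 through its control samples alone, at no less than 0.197 CPM before scaling against a limit of 0.178 that no neomycin sample reached (0.0717 at most). Without neomycin sample 2 the decrease did not pass (log2 fold change -2.98, adjusted p = 0.0627), and DESeq2, which gave a raw p of 0.00151, set no adjusted p for it.

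The 300 bases around the start sites of Chrd and Grem1 are shown because these antagonists had the largest log2 fold changes in either direction among the 10 genes. Both stretches run 5′ to 3′ on the strand of the gene, from 250 bases before to 50 after its start, and come from RefSeq on GRCm38.p6, at chr16:20732877-20733176 (plus strand) for Chrd and chr2:113758599-113758898 (minus strand) for Grem1. Capitals mark matches to GGCGCC, a palindrome known as a GC-rich SMAD element, to the GC box GGGCGG or its reverse complement CCGCCC, and to CCAAT or ATTGG.
Chrd: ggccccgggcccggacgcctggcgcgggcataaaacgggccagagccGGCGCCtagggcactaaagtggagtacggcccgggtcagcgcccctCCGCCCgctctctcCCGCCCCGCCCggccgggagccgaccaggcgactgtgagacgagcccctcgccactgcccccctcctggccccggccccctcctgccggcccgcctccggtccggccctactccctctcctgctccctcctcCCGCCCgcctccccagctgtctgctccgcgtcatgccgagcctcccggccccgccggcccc
Grem1: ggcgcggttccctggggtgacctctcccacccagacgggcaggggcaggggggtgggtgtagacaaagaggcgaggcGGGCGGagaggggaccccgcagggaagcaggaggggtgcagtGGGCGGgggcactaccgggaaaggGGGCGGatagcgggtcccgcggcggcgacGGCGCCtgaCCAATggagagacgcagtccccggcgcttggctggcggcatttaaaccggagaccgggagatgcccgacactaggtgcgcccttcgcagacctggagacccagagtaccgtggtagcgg

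Each stretch held 1 GGCGCC, found in 11.9% of the 32851 RefSeq promoters of that length. Chrd held 4 GC boxes, of which a pair shares 1 base, and Grem1 held 3, where 35.7% of promoters held any. Grem1 also had 1 CCAAT, present in 37.4% of promoters. Neither window had the letters TATAAA (13.6% of promoters) or GGAATG (14.7%), the core of the TEAD sites used by the Hippo pathway, on either strand. The bases were rich in G and C, at 78.3% for Chrd and 70.7% for Grem1. A promoter was matched for 5 of the 10 genes, the others being Bmp4, Bmp5 and Bmp6, whose windows held 1, 0 and 1 GC boxes and no GGCGCC. Bmp2, Bmp7, Nog, Chrdl1 and Fst had no entry. These matches describe letters only.

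Fst encodes follistatin, which binds activins tightly and several BMPs more weakly, and which is expressed in the cochlear epithelium during development. Its level was 106, 103 and 92.6 CPM in control and 116, 116 and 140 CPM after neomycin. The groups did not overlap, and neomycin sample 3 stood highest. The mean rose 1.23-fold, from 101 ± 7.07 to 124 ± 13.7 CPM (log2 fold change 0.30 ± 0.09, 95% interval 0.11 to 0.49, adjusted p = 0.024). The increase no longer passed with scaling by total counts (0.23, adjusted p = 0.0811), or without control sample 2 (adjusted p = 0.0615), control sample 3 (0.0504) or neomycin sample 3 (0.119).

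Chrdl1 encodes chordin-like 1, also called ventroptin, a BMP4 antagonist of retina and brain. It was read at 60.0, 48.9 and 50.4 CPM in control and 71.7, 62.3 and 60.0 CPM after neomycin. Control sample 1 lay level with the lowest neomycin sample, so the groups overlapped. The log2 fold change was 0.28 ± 0.09 (95% interval 0.08 to 0.49, adjusted p = 0.0401), from a mean of 53.1 ± 6.05 to 64.7 ± 6.24 CPM. It no longer passed with scaling by total counts (0.21, adjusted p = 0.153), or without control sample 2 (adjusted p = 0.153), control sample 3 (0.079), neomycin sample 1 (0.137) or neomycin sample 2 (0.0863).

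Nog encodes noggin, which blocks both receptor-binding faces of a BMP dimer. It was read at 7.27, 6.59 and 6.83 CPM in control and at 7.64, 8.54 and 8.47 CPM after neomycin. The neomycin samples were all above the controls, though narrowly at the closest pair. The difference missed the threshold all the same (log2 fold change 0.25 ± 0.12, 95% interval -0.02 to 0.52, adjusted p = 0.148), as it did under each of 16 other settings. With gene length correction the log2 fold change of Nog was only 0.04 (adjusted p = 0.852).

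**Figure D2:**
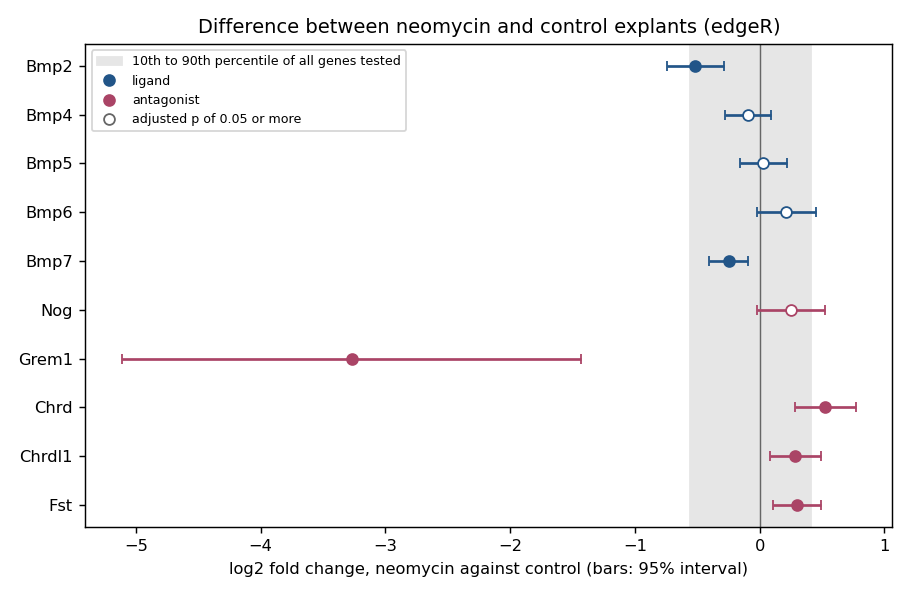
Log2 fold change, neomycin minus control, of the 10 genes with 95% intervals from edgeR's quasi-likelihood fit; filled points passed at an adjusted p under 0.05, ligands are blue and antagonists red, and the grey band spans the 10th to the 90th percentile of all genes tested. Grem1 (-3.27) lies far out with a wide interval, and the other 9 lie between -0.52 and 0.52.

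Levels of different genes were compared per length, as CPM per kilobase of exon (RPKM). With all exons of a gene joined, Bmp7 was the most abundant, at 45.1 ± 1.94 RPKM in control and 38.0 ± 2.08 after neomycin. Fst followed at 21.9 ± 1.54 and 27.0 ± 3, and was the most abundant antagonist. Below them came Bmp4 (15.8 and 14.8 RPKM), Bmp6 (12.8 and 14.8), Chrdl1 (7.86 and 9.57), Bmp5 (8.11 and 8.27), Nog, Bmp2, Chrd (1.41 and 2.03) and Grem1 (0.0754 and 0.00735). Within this order, the samples of Chrdl1 and Bmp5 overlapped in both groups and those of Bmp4 and Bmp6 overlapped after neomycin, so these neighbours did not differ beyond their spread there. Nog and Bmp2 changed places. Bmp2 was at 4.38 to 4.95 RPKM and Nog at 3.89 to 4.29 in control, and after neomycin Bmp2 was at 3.01 to 3.45 and Nog at 4.51 to 5.04. Some of this order rests on the length used. With the longest transcript in place of all exons, Fst (42.4 ± 4.71 RPKM) and Bmp7 (41.6 ± 2.28) overlapped after neomycin, and Chrdl1 lay above Bmp5 in every sample, at 11.9 to 14.7 against 7.99 to 8.98 RPKM in control and 14.6 to 17.5 against 7.87 to 9.42 after neomycin. Nog and Bmp2 changed places with either length.

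The makeup of the ligand and antagonist pools is given as a description, with no test. The 5 ligands summed to 87.0, 83.8 and 88.8 RPKM in control and 81.9, 77.5 and 78.3 RPKM after neomycin. The 5 antagonists summed to 37.9, 34.9 and 33.1 RPKM in control and 42.4, 41.7 and 46.3 RPKM after neomycin. The sum of these 5 ligands was thus lower and that of these 5 antagonists higher in all 3 neomycin samples. Other ligands and antagonists, described below, are not in these sums. Among those named below that passed, Gdf6 (higher), Crim1 (lower) and Fstl3 (lower) went the other way. Gdf11 (lower) went the same way, as did Vwc2, Nbl1, Bmper and Sostdc1 (all higher). The antagonist to ligand ratio was 0.435, 0.417 and 0.373 in control and 0.517, 0.538 and 0.592 after neomycin, or 0.409 ± 0.0319 and 0.549 ± 0.0386. With longest-transcript lengths the ratios were 0.61, 0.584 and 0.521 against 0.727, 0.751 and 0.829. The level of the ratio thus depends on the length used, and the groups did not overlap with either length. Bmp7 was the largest part of the ligand sum and Fst of the antagonist sum. Bmp7 made up 52.3, 51.3 and 52.7% of the ligand sum in control and 44.5, 48.0 and 51.6% after neomycin, and Fst 61.1, 64.1 and 60.9% of the antagonist sum in control and 59.8, 60.6 and 65.7% after neomycin. Neomycin sample 3 lay within the control range for the Bmp7 share and the other two below it, and the neomycin samples fell on both sides of the controls for the Fst share. Bmp6 went from 14.8, 14.3 and 15.3% of the ligand sum to 21.5, 18.7 and 15.9%, and Bmp2 from 5.03, 5.75 and 5.58% to 3.67, 4.44 and 4.4%. Every neomycin sample was above the controls in the Bmp6 share and under them in the Bmp2 share. A share also moves with the sum, which was lower after neomycin. In neomycin sample 3 the Bmp6 level itself (12.4 RPKM) lay among the controls (12.8, 12.0 and 13.6 RPKM). The ratio of Bmp2 to Bmp4 was 0.278, 0.306 and 0.313 in control and 0.184, 0.256 and 0.236 after neomycin. RNA levels per length say nothing of protein or of the affinity of an antagonist for a ligand.

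**Figure D3:**
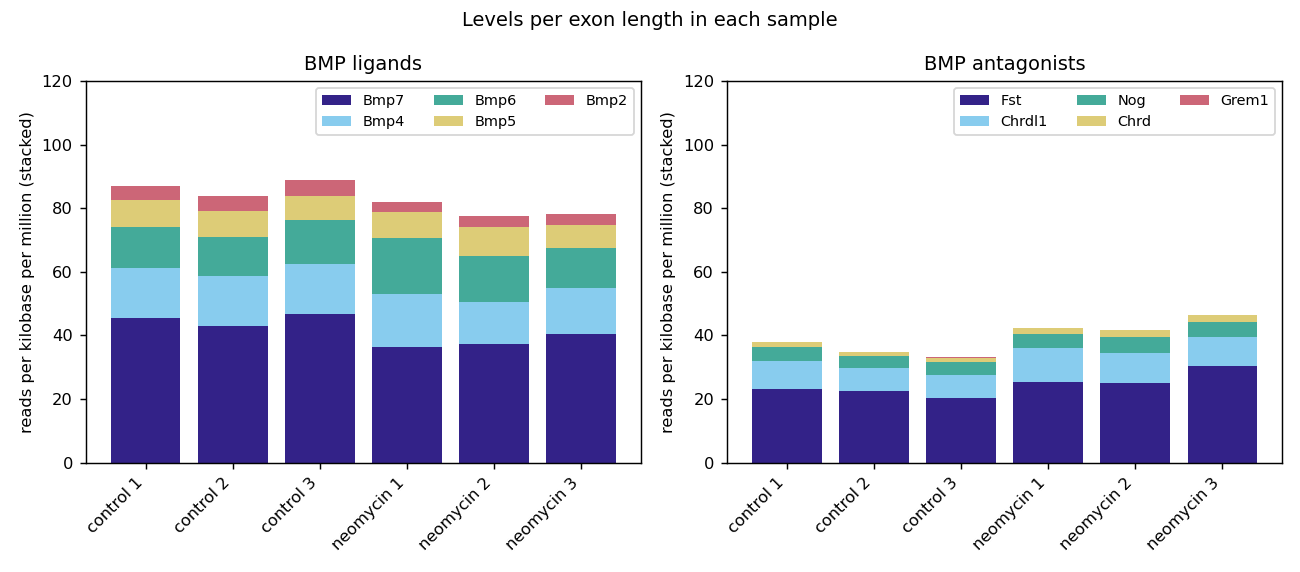
Stacked level per exon length in RPKM (linear axis from 0) of the 5 BMP ligands (left) and the 5 antagonists (right), 1 bar for each of the 3 control and 3 neomycin samples. The ligand bars reach 83.8 to 88.8 RPKM in control and 77.5 to 81.9 after neomycin and the antagonist bars 33.1 to 37.9 and 41.7 to 46.3, with Bmp7 and Fst the largest parts and Grem1 too thin to see.

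By position on mm10, the 10 genes lie on 7 chromosomes. Bmp2 is at chr2:133552159-133562885 (plus strand), Bmp7 at chr2:172868012-172940321 (minus) and Grem1 at chr2:113746164-113758646 (minus). Bmp4 is at chr14:46383520-46390669 (minus), Bmp5 at chr9:75775364-75900310 (plus) and Bmp6 at chr13:38345107-38500302 (plus). Chrd is at chr16:20733127-20742384 (plus), Nog at chr11:89300638-89302332 (minus), Chrdl1 at chrX:143285674-143394262 (minus) and Fst at chr13:114452290-114458951 (minus). Exons of Bmp4, Bmp6 and Fst overlap genes on the other strand over 89, 224 and 115 bases. Txndc5, the gene across from Bmp6, had 20788 to 28347 counts a sample and did not differ past the test (log2 fold change -0.04, adjusted p = 0.718).

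Of 59 other genes of the BMP pathway, in 6 lists by role, 49 were tested. Of these 18 passed, 9 higher and 9 lower, and 5 were called, 3 higher and 2 lower, where 29.0% of all genes passed and 8.84% were called. Among all genes, 12.9% passed as higher and 16.1% as lower, the shares beside which the list counts below stand. The median log2 fold change of the 49 genes was -0.02.

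Among 11 other BMP and GDF ligands, 7 were tested, and 1 passed in each direction. Gdf6, a ligand known for joint and eye development, was read at 15.4, 15.8 and 18.7 CPM in control and 42.8, 39.3 and 39.5 CPM after neomycin. Every neomycin sample was far above the highest control. The log2 fold change was 1.29 ± 0.09 (95% interval 1.08 to 1.49, adjusted p = 2.66e-06), the largest increase of any ligand here, and it was called under each of 16 other settings. Gdf11, named after its value was seen, fell (log2 fold change -0.47, adjusted p = 0.0205), but did not pass without control sample 1 (0.0742), neomycin sample 2 (0.0949) or neomycin sample 3 (0.0813).

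Among 15 other secreted antagonists and modulators, 12 were tested, 5 rose and 2 fell, and 4 were called. Vwc2, which encodes the chordin-repeat protein brorin, rose from 4.82 ± 1.68 to 9.70 ± 0.746 CPM (log2 fold change 1.00 ± 0.20, adjusted p = 0.00394). Crim1, a membrane-anchored protein with chordin-like repeats that binds BMPs, fell from 92.0 ± 12.4 to 46.2 ± 4.71 CPM (-0.99 ± 0.10, adjusted p = 3.92e-05). Both were called under each of 16 other settings. Fstl3, a follistatin relative that binds activins, fell from 3.64 ± 0.185 to 2.21 ± 0.54 CPM (-0.72 ± 0.22, adjusted p = 0.0271), and did not pass without control sample 1 (0.0716), control sample 2 (0.0843), neomycin sample 1 (0.0762) or neomycin sample 2 (0.0824). Nbl1 (0.35, adjusted p = 0.0023), Bmper (0.38, adjusted p = 0.0202) and Sostdc1 (0.32, adjusted p = 0.0447), named after their values were seen, also rose. Bmper did not pass without control sample 2 (adjusted p = 0.0614), neomycin sample 2 (0.0941) or neomycin sample 3 (0.0602). Sostdc1 was lost under 8 of 16 other settings, among them total counts (0.25, adjusted p = 0.138), gene length correction (0.12, adjusted p = 0.523) and each left-out sample but control sample 1 (adjusted p from 0.0796 to 0.144).

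Chordin is cut by the tolloid-class proteases, of which 2 of 3 were tested and 0 passed under the reported edgeR settings. Bmp1, a protease and not a BMP ligand despite its name, stood at 0.21 ± 0.08 on the log2 scale (adjusted p = 0.0832, unadjusted p = 0.0294), and Tll1 at -0.37 ± 0.32 (adjusted p = 0.423). Bmp1 did pass with gene length correction (0.38, adjusted p = 0.0019) and without control sample 1 (0.30, adjusted p = 0.0173).

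Of 12 receptors and co-receptors, 11 were tested, 3 fell (16.1% of all genes) and 0 rose (12.9%), and the median was -0.20 on the log2 scale. The most abundant pair, the type I receptor gene Bmpr1a (-0.17 ± 0.07, adjusted p = 0.0904) and the co-receptor gene Rgma (-0.02 ± 0.10, adjusted p = 0.913), did not pass, though Bmpr1a did with scaling by total counts (-0.24, adjusted p = 0.0234). The genes that fell, named after their values were seen, were the type I receptor gene Acvr1 (-0.32, adjusted p = 0.0142), the type II receptor gene Acvr2a (-0.26, adjusted p = 0.0241) and the co-receptor gene Rgmb (-0.32, adjusted p = 0.0193). None of the 3 passed without control sample 2 (adjusted p = 0.0768, 0.0909 and 0.0514 in that order). Acvr1 and Acvr2a were also lost without neomycin sample 2 (adjusted p = 0.0817 and 0.0543), Acvr2a without neomycin sample 3 (0.116) and Rgmb without neomycin sample 1 (0.0645). With gene length correction Acvr2a (-0.18, adjusted p = 0.0824) and Rgmb (-0.18, adjusted p = 0.197) did not pass. The type I receptor gene Acvrl1, also named after its value was seen, had the lowest log2 fold change of this list but did not pass (-0.42, adjusted p = 0.0559). It passed under 7 of 16 other settings, among them DESeq2 (adjusted p = 0.0356) and limma-voom (0.0482).

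Of 8 SMADs and their regulators, 8 were tested, 3 fell (16.1% of all genes) and 0 rose (12.9%), with a median of -0.18. Those that fell act against the signal: Smad7, an inhibitory SMAD (-0.58, adjusted p = 0.00184), and the ubiquitin ligases Smurf1 (-0.48, adjusted p = 0.000993) and Smurf2 (-0.35 ± 0.07, adjusted p = 0.00337). The other inhibitory SMAD, Smad6, did not pass (0.02, adjusted p = 0.911). Smad7, Smurf1 and Smad6 were named after their values were seen. Smad1, which carries the signal, was at -0.23 ± 0.10 (adjusted p = 0.107) and passed without neomycin sample 3 (-0.34, adjusted p = 0.0322).

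Of 10 target genes, 9 were tested, 3 rose (12.9% of all genes) and 0 fell (16.1%), with a median of 0.12. The 3 were Id genes, which encode helix-loop-helix proteins that hold back differentiation factors. The remaining Id gene of the list, Id4, did not pass (-0.00, adjusted p = 0.973). Id1 and Id4 were named after their values were seen. Id1 went from 156 ± 10.6 to 196 ± 4.29 CPM (log2 fold change 0.33, adjusted p = 0.00645), Id2 from 202 ± 11.8 to 270 ± 21.9 (0.42, adjusted p = 0.00324) and Id3 from 257 ± 8.43 to 317 ± 22.0 (0.30, adjusted p = 0.0126). In each of them the neomycin samples all lay above the controls. With gene length correction Id1 (0.04, adjusted p = 0.688) and Id3 (0.11, adjusted p = 0.234) no longer passed, and Id3 also did not pass without control sample 2 (0.052), neomycin sample 2 (0.0664) or neomycin sample 3 (0.0651).

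**Figure D4:**
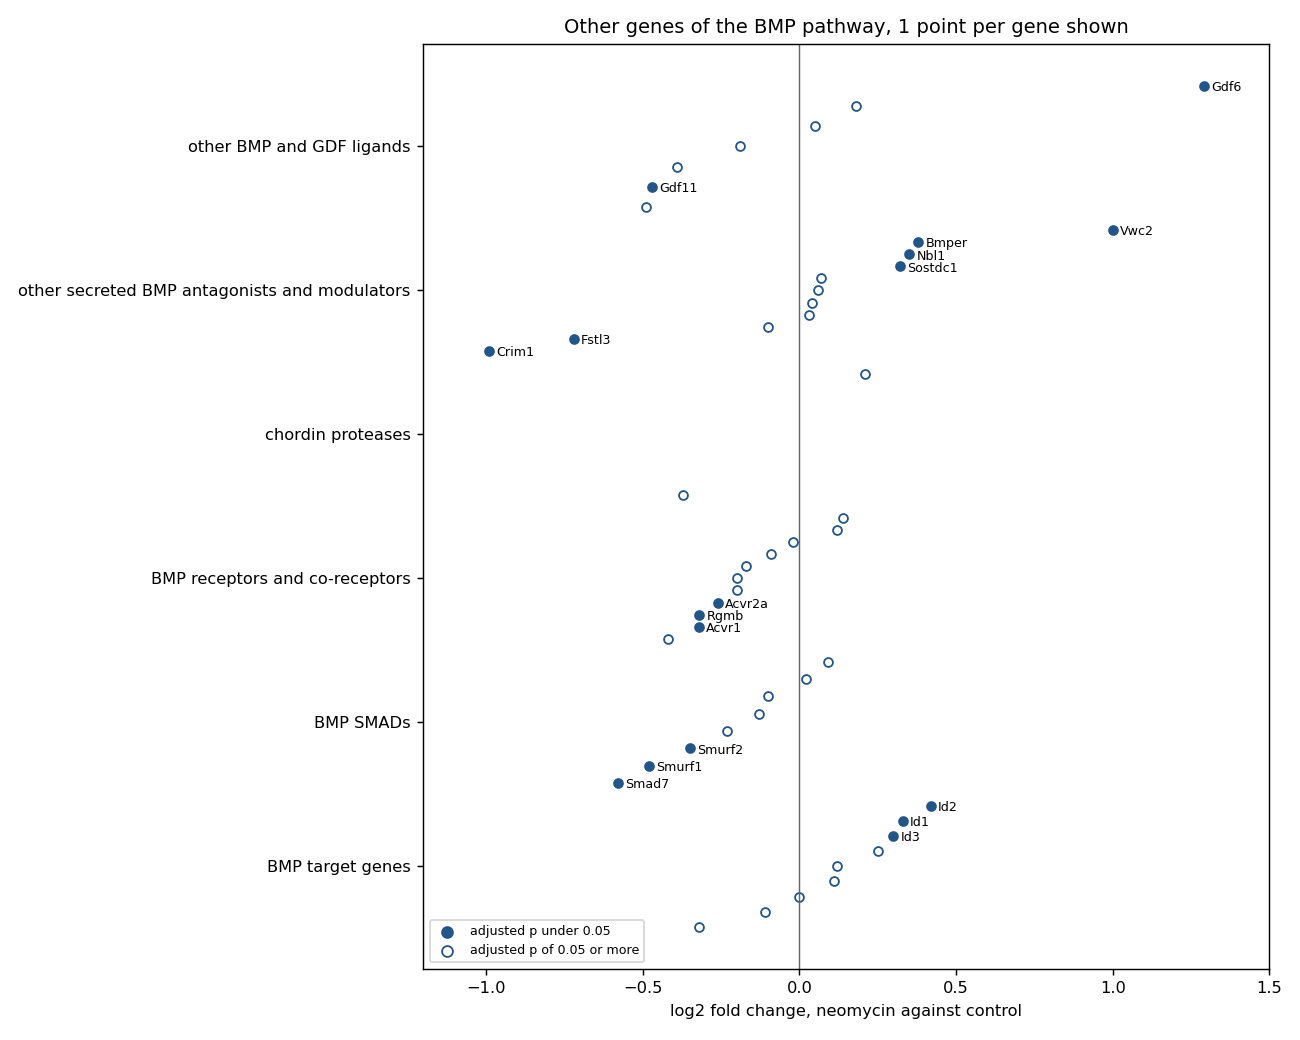
Log2 fold change, neomycin minus control, of tested genes in the 6 other BMP pathway lists, 1 point a gene and with 1 tested gene not shown, filled and named where the adjusted p was under 0.05. Gdf6 (1.29), Vwc2 (1.00) and Crim1 (-0.99) lie farthest out. The filled receptor and SMAD points lie left of 0 and the filled target points right of it, with only 3 filled points in each of these lists.

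The choice of processing bore unequally on the 10 genes. Bmp2 and Chrd passed the test under each of 16 other settings, and Nog and Bmp5 under none. Bmp7, Fst, Chrdl1 and Grem1 were lost under the settings named above, and Bmp4 and Bmp6 gained a pass under 1 setting each.

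**Figure D5:**
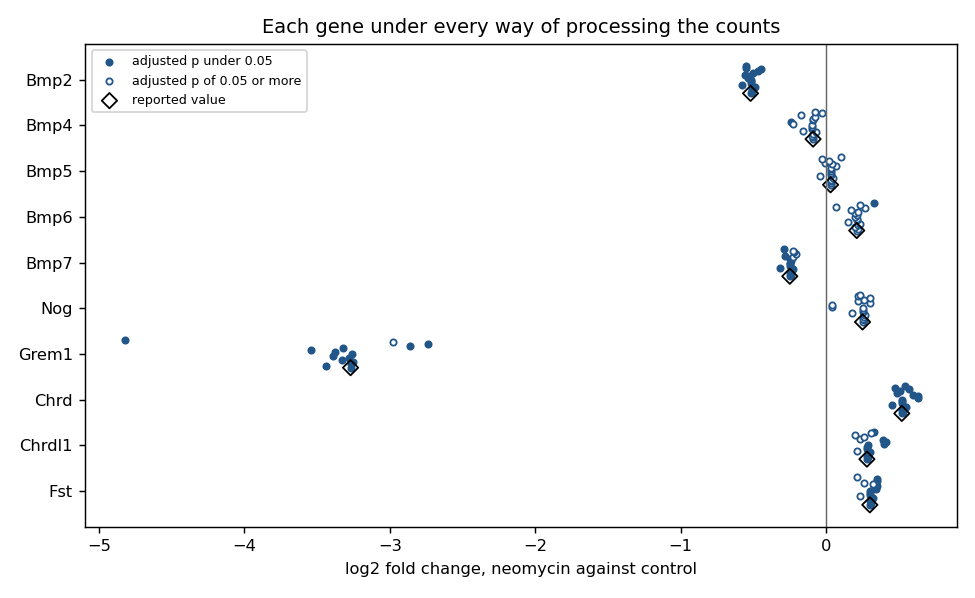
Log2 fold change, neomycin minus control, of the 10 genes under the reported settings and each alternative, 1 point a setting, filled where the adjusted p was under 0.05, with diamonds around the reported values. The points of Bmp2 (-0.58 to -0.45) and Chrd (0.45 to 0.63) are all filled, and those of Bmp5 fall on both sides of 0.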

How the data were processed

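The authors deposited 1 table of raw read counts per gene symbol for the 6 samples. Per the paper's methods and the submitters' processing notes, base calls were made with CASAVA 1.8, reads trimmed with Trimmomatic 0.23, aligned to mm10 with HISAT2 and counted with HTSeq. The strand setting and the treatment of reads with several matches are not given in the sources used here. Nothing says that the samples came from separate litters or cultures beyond the pools, so p-values measure the spread between these samples.

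The deposited counts were tested with edgeR 4.0.16 (R 4.3.3) by the quasi-likelihood test, with TMM scaling, filterByExpr and Benjamini-Hochberg adjustment over all 15988 genes kept. All 10 BMP genes were kept, 9 with 344 to 12630 counts in every sample and Grem1 through its control samples. SE is the fold change over the root of F. CPM are TMM-scaled. Exon lengths came from GENCODE M21 on mm10 and covered 99.2% of tested genes. On simulated counts with known changes in 200 of 15865 genes, 52 of 67 genes changed 1.5-fold were recovered, 64 of 67 changed 2-fold and 64 of 66 changed 4-fold, with 4 false calls. Every simulated gene had the same dispersion (0.01), so these rates do not measure recovery for the more variable genes of the real data.

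Alternatives were DESeq2 1.42.0, limma 3.58.1 (voom), 3 other scalings, 2 other filters, a gene length correction (lowess, span 0.3), a replicate block, and leaving out each sample. The genes, lists and tests were chosen with earlier results of these data known. Of the other pathway lists, genes called (up to 4) or, with none, the 2 with most reads were named, and of marker lists the 2 with most reads. Genes outside this rule are said to be so, and 1 gene called is counted but not reported here.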

Additional observations from a re-analysis of the deposited data

How the results depend on the processing

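The number of genes called, 1413, stayed between 1164 and 1480 under other tools, scalings, filters and the length correction, and between 1037 and 1672 with each sample left out. It was 994 at an adjusted p under 0.01 and 4629 without the fold threshold. Leaving out samples moved the number at an adjusted p under 0.05 alone between 2518 and 5341. Among those calls 44.5% were higher, and 29.7% with scaling by total counts, which shifted the median log2 fold change by -0.0691.

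Of the 10 BMP genes, 1 was called. The number was 0 with DESeq2 (Grem1 had no adjusted p), with a filter at a mean of 1 CPM (Grem1 not tested) and at an adjusted p under 0.01, 2 with the length correction, with or without the block, 6 without the fold threshold, and 0 to 2 with each sample left out. The number that passed, 6, went between 3 and 6 with each sample left out, with 3 without control sample 3 and without neomycin sample 2. Of the other pathway genes, 5 were called, against 18 without the fold threshold, 3 at an adjusted p under 0.01 and 3 to 6 with each sample left out, the 3 being without control sample 2. The log2 fold change of Bmp5 (0.03) turned to -0.04 with total counts, -0.01 without control sample 3 and -0.03 without neomycin sample 2, within a range of -0.03 to 0.10 with each sample left out. The causes were not tested.

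Samples with the same number deviated together only weakly, with correlations of 0.165, 0.0264 and 0.0949, all above 0. Control sample 2 correlated best with neomycin sample 3 (0.0325). The numbers were not taken to pair the samples, and whether they do was not tested. With the replicate block 1465 genes were called, 6014 passed the adjusted p alone against 4629 without it, and 1 BMP gene and 5 other pathway genes were called. Every one of the BMP ligands and antagonists had a lower adjusted p in edgeR with the block, Bmp7 (adjusted p = 0.00542) and Chrdl1 (0.00327) among them. Of the other pathway genes, Bmp1 (adjusted p = 0.0135), Bmpr1a (0.031), Acvrl1 (0.0345) and the co-receptor gene Eng (0.0463) gained a pass with the block. Acvrl1 and Eng were named after their values were seen.

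Grem1 lies within a few counts of 0, where depth limits any statement on its size.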

Other observations

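The genes whose pattern over the 6 samples was nearest to that of Grem1, by Euclidean distance in centred log2 CPM among 15987 other genes, were Orm1 and Wdr95, which were as thinly read. Orm1, which encodes an acute-phase plasma protein, had 26, 23 and 39 counts in control and 2, 2 and 8 after neomycin (distance 0.54). Wdr95 had 23, 20 and 28 counts in control and 1, 2 and 9 after neomycin (distance 0.63). Like Grem1, both genes entered the test through their control samples alone. Whether the likeness goes beyond low counts was not tested.

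The 3 BMP genes that fell, Grem1, Bmp2 and Bmp7, are also the 3 of the 10 that lie on chromosome 2. They are 19.8 Mb (Grem1 to Bmp2) and 39.3 Mb (Bmp2 to Bmp7) apart. Of 1249 genes tested on chromosome 2, 224 (17.9%) passed as lower, against 16.1% of all genes. Grem1 had few reads and entered the test through its control samples alone. The place of the 3 genes on chromosome 2 was seen after the results and was not tested.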
